A study of Homo sapiens with 8 samples.

Results

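Retinoid signalling genes were followed in the human neuroblastoma cell line BE(2)-M17, with and without interferon-γ (IFN-γ). The set held 9 of the 26372 gene symbols of the deposited table, picked by symbol: RARRES3, RARRES1 and RARRES2, named for their response to retinoids, the retinoic acid receptor genes RARA, RARB and RARG, the binding proteins CRABP1 and CRABP2, and the retinal reductase DHRS3. All 9 were in the table. The set was put together with the IFN-γ values of these genes known, the level of RARRES3 among them, so their differences between the groups are given as a description, without a test. 4 libraries came from cells treated with IFN-γ at 10 ng/ml for 24 h and 4 from untreated cells, all grown in medium with fetal bovine serum. Each library was made from rRNA-depleted total RNA and read in pairs of 150 nt, and its values are FPKM, fragments per kilobase of transcript scaled to the mapped fragments. Whether each library had a culture of its own is not stated in the labels, so spreads and p-values describe these libraries and may be technical.

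Retinoic acid is made inside the cell from retinol. STRA6 takes retinol up, retinol dehydrogenases and retinaldehyde dehydrogenases oxidise it in turn, and CYP26 enzymes break retinoic acid down. CRABP proteins hold retinoic acid in the cytoplasm, and CRABP2 hands it to the receptors RARA, RARB and RARG, which bind DNA as partners of RXR proteins. Retinoic acid drives the differentiation of neuroblastoma cells and is used as a treatment in that disease. RARRES3, now named PLAAT4, is a small phospholipase and acyltransferase with growth-suppressing activity, first found as a gene raised by a synthetic retinoid.

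Interferon and retinoid control meet at the DNA through short elements, so the sequence before the start of the genes is shown for 4 of them: RARB and RARG, whose windows held matches, and RARRES1 and CRABP2, whose RNA stood apart between the groups. The windows run from 250 bases before to 50 bases after an annotated start, are credited to RefSeq (GRCh38.p14), and are written 5′ to 3′ on the strand of the gene, with matches in capitals. In RARB the capitals mark a DR5 element, a direct repeat of the retinoic acid half-site with 5 bases between the copies, and in RARG an interferon-stimulated response element. The windows lie at chr3:25428013-25428312 (forward strand), chr12:53232160-53232459, chr3:158732408-158732707 and chr1:156705735-156706034 (all reverse strand), in the order shown.
RARB: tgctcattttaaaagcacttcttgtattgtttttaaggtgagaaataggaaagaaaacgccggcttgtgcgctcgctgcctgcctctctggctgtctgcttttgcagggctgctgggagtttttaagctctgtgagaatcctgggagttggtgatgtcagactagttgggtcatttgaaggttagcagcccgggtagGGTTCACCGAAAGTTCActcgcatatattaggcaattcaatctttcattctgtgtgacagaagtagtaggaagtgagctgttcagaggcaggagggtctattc
RARG: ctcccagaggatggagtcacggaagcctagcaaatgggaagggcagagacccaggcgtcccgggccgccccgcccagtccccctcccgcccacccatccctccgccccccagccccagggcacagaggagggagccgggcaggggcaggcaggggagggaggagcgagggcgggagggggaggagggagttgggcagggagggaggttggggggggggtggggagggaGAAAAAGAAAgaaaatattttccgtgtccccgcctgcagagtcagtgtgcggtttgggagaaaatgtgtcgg
RARRES1: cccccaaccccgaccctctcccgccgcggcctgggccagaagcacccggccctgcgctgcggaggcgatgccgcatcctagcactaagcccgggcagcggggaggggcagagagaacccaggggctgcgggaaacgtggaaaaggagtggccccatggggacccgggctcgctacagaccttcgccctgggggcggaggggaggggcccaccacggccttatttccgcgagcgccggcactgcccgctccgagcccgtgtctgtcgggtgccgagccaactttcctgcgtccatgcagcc
CRABP2: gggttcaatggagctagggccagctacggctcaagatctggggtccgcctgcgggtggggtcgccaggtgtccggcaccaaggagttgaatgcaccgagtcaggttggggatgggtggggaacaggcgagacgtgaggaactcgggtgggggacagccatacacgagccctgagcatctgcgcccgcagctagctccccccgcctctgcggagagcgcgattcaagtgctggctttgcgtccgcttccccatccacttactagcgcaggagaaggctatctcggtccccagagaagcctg

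Of the 9 genes, 8 matched the RefSeq windows, with 15 windows in all. RARRES3 did not match. The motifs searched on both strands were the interferon-γ-activated site GAS (TTCNNNGAA), the interferon-stimulated response element ISRE (GAAA, any 2 bases, GAAA) and the retinoic acid elements DR1, DR2 and DR5. A match was found in 3 of the 15 windows. The DR5 match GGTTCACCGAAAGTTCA of RARB lay at positions -53 to -37 from the start, the start itself being 0, and this promoter is textbook for such an element, through which the receptors raise RARB. The GAS match TTCACCGAA lay within the same letters, at -51 to -43, and another RARB window, at chr3:25458060-25458359, held the GAS match TTCTGTGAA. The ISRE match GAAAAAGAAA of RARG lay at -22 to -13. Among all 35116 windows, 7.66% held GAS, 3.57% ISRE, 0.131% DR1, 0.0399% DR2 and 0.0883% DR5. The RARRES1 and CRABP2 windows held none of the 5 motifs. A match says only that the letters are there.

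Depth, read from steps between low FPKM values, was about 15.1 to 21.7 M fragments per library with IFN-γ and 17.3 to 20.7 M untreated. On a transcript with 1 kb left after 200 bases were taken off, 1 fragment was then worth 0.0460 to 0.0664 FPKM. Libraries correlated on the log2 scale with a Pearson's r of 0.983 or more inside a group and of 0.938 or less across groups. IFN-γ replicate 4 differed from its 3 group mates by 8.25 to 9.01 times the variance that counting gives, and the other 9 pairs within groups by 1.71 to 2.54 times. These ratios rest on 554 to 578 genes with 1 annotated transcript and neither very few nor very many fragments. Over all genes tested, r was 0.983 to 0.985 in pairs with replicate 4 and 0.985 to 0.989 in the others. Calls and counts of calls that differ without IFN-γ replicate 4 are given below. The 9 neuroblastoma and neuronal markers counted were all above 1 FPKM, such as HAND2 at 292.6 to 302.4 FPKM with IFN-γ and 303.7 to 309.4 FPKM untreated. Of them 2 rose, ELAVL4 (log2 change 0.75, limma adjusted p = 8.7e-08) and CHGA (0.42, adjusted p = 1.2e-04), and the rest were not called. Without IFN-γ replicate 4, MYCN and STMN2 were called lower (log2 changes -0.17 and -0.21, limma adjusted p = 0.0010 and 9.9e-04). Leukocyte, endothelial and epithelial markers (13 genes) were all below 1 FPKM. The 4 fibroblast and Schwann markers counted summed to 182 to 238 FPKM with IFN-γ and 165 to 175 FPKM untreated, with DCN, LUM and PDGFRB above 1 FPKM and SOX10 below it. PDGFRB and LUM rose (log2 changes 1.35 and 0.66, limma adjusted p = 9.5e-08 and 0.0015), and DCN was not called. Their part in the results below was not tested. In bulk RNA, fewer cells with an RNA and less of it per cell cannot be told apart.

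RARRES3 was at 247, 274, 255 and 331 FPKM with IFN-γ and was listed at 0 in all 4 untreated libraries. The groups did not overlap, and the highest value was that of IFN-γ replicate 4. The mean with IFN-γ was 277 ± 38.0 FPKM (SD, n = 4), and 259 ± 14.0 FPKM (SD, n = 3) without replicate 4. By the full length of the longest transcript, 938 bases, these values stand for at most about 3872 to 6752 fragments per IFN-γ library. By that length 1 fragment in an untreated library was worth up to about 0.0615 FPKM, and more with 200 bases taken off. No fold is given against a group at 0. An exact 0 in these values can also be a failed estimate: H3F3A, a histone gene, was listed at 0 in 2 IFN-γ libraries and 1 untreated library. Elsewhere H3F3A reached up to 24.8 FPKM. The other widely expressed genes looked at, ACTB and GAPDH among them, were above 0 in all 8 libraries. Among the 7256 genes listed at 0 in all 4 untreated libraries, RARRES3 had the highest mean with IFN-γ, ahead of PSMB9 at 41.4 ± 5.04 FPKM (SD, n = 4), and only 23 of them reached a mean of 1 FPKM. Among all genes it ranked 223rd by mean FPKM with IFN-γ.

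The genes whose 8 log2(FPKM + 0.1) values lay nearest to those of RARRES3 were HLA-DRA, an MHC class II chain, at a root mean square difference of 0.58, GBP1, a guanylate-binding GTPase, at 0.74, TAP1, a peptide transporter subunit, at 0.90, and the apolipoprotein L genes APOL6 at 1.32 and APOL1 at 1.41. HLA-DRA was at 161 ± 15.7 FPKM with IFN-γ and at most 0.0456 FPKM untreated. GBP1 was at 546 ± 15.5 FPKM with IFN-γ and 0.0167 to 0.0397 FPKM untreated (SD, n = 4). TAP1 was at 353 ± 18.5 FPKM with IFN-γ and 0.0614 to 0.199 FPKM untreated (SD, n = 4). Both stood above RARRES3 with IFN-γ, and the ranking of genes at 0 untreated left them out for these low values. APOL1 was at 70.2 ± 6.52 FPKM with IFN-γ and at most 0.0183 FPKM untreated (SD, n = 4). The likeness is over 8 libraries that fall into 2 groups, so it mainly reflects the level in each group.

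**Figure D1:**
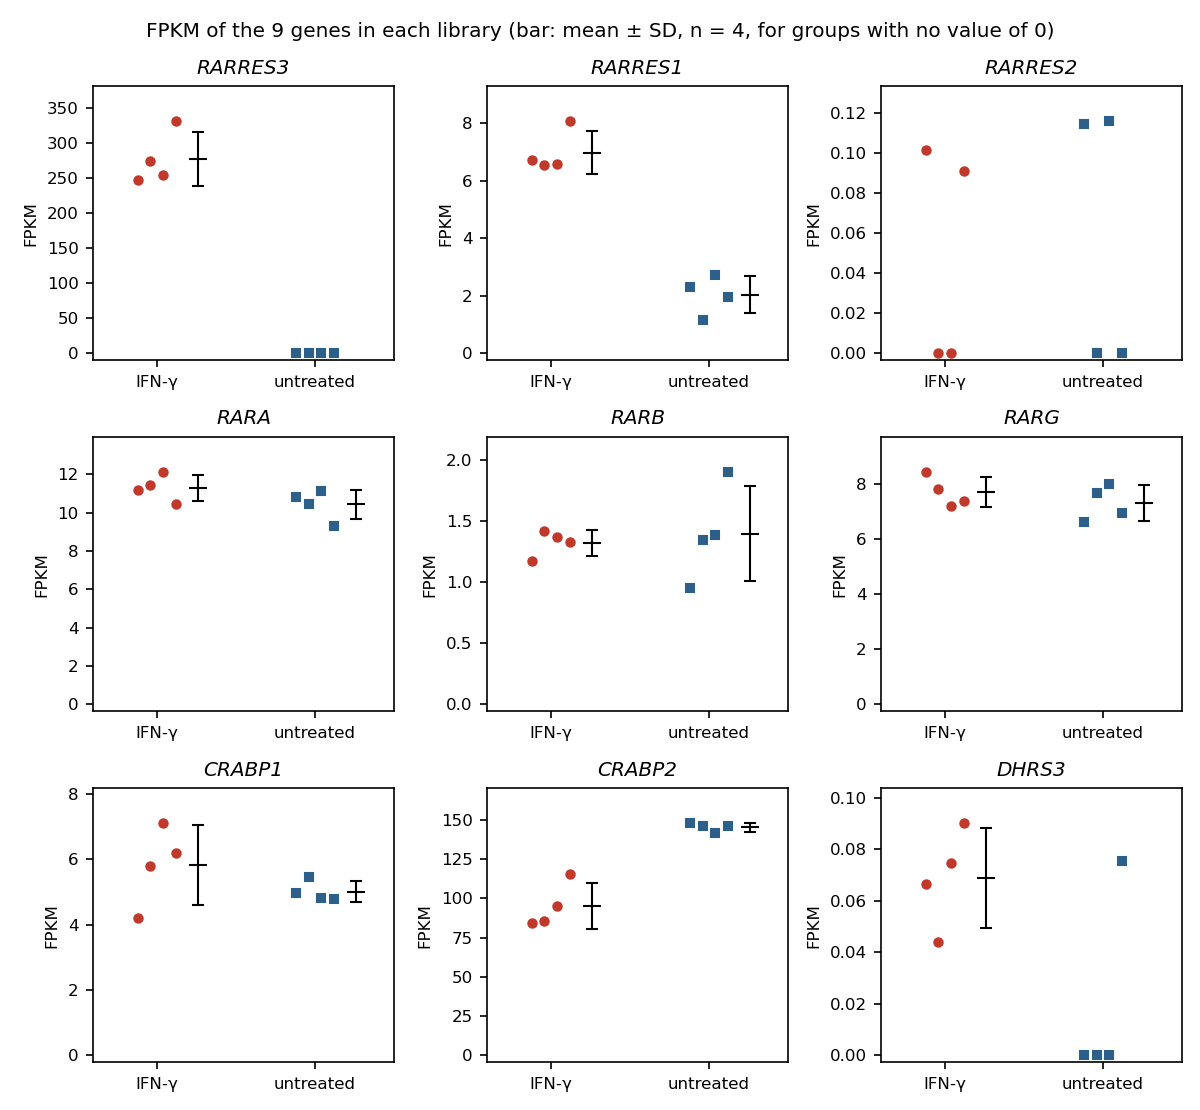
FPKM of each of the 9 genes in the 4 IFN-γ libraries (red circles) and the 4 untreated libraries (blue squares), with the mean ± SD beside each group that held no value of 0, and each panel on its own linear axis that includes 0. RARRES3, RARRES1 and CRABP2 show groups that do not overlap, as do 28.2% of all genes tested, and the other 6 genes show groups that overlap.

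RARRES3 spans bases 63536809 to 63546462 of chromosome 11, forward strand (GRCh38, GENCODE release 29), with no other gene of the table overlapping it, beside relatives of its own phospholipase family. The nearest listed genes were LGALS12 and HRASLS5 (PLAAT5) on its left and HRASLS2 (PLAAT2) and PLA2G16 (PLAAT3) on its right. PLA2G16, a phospholipase abundant in fat, whose annotated end lies 26.7 kb away on the other strand, was at 20.1, 20.8, 22.0 and 22.9 FPKM with IFN-γ and at 1.64, 1.33, 2.74 and 3.39 FPKM untreated. It rose by a log2 change of 3.27 (SE 0.24, limma adjusted p = 4.1e-06, higher in 4 of 4 libraries). HRASLS2, 6.31 kb away, was at 0.507, 0, 0.115 and 0.456 FPKM with IFN-γ and listed at 0 in all 4 untreated libraries, under the filter of a mean of 0.5 FPKM and so not tested. LGALS12, a galectin gene, and HRASLS5 were listed at 0 in all 8 libraries. RARRES3 transcripts share no stretch of 31 bases with those of PLA2G16 or HRASLS2, so reads that long could not match both without a mismatch. Within IFN-γ libraries RARRES3 was 11.6 to 14.5 times the FPKM of PLA2G16. The family's other member, HRASLS (PLAAT1) on another chromosome, was at 0.304 ± 0.178 FPKM with IFN-γ and 0.427 ± 0.314 FPKM untreated (SD, n = 4), also under the filter.

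**Figure D2:**
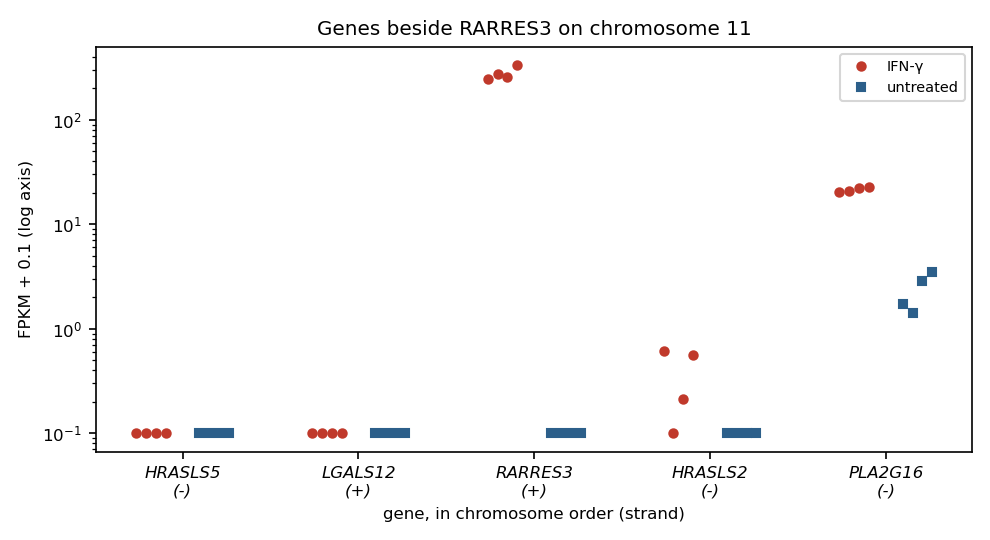
FPKM + 0.1 on a log axis for RARRES3 and the 2 listed genes on each side of it, in chromosome order, with IFN-γ libraries as red circles and untreated libraries as blue squares. RARRES3 and PLA2G16 stand higher in all 4 IFN-γ libraries, and LGALS12 and HRASLS5 lie at 0 in all 8.

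RARRES1, a membrane protein related to carboxypeptidase inhibitors and often silenced in tumours, was at 6.73, 6.54, 6.58 and 8.09 FPKM with IFN-γ and at 2.32, 1.18, 2.72 and 1.96 FPKM untreated. All 4 IFN-γ values lay above all untreated ones, 3 of them close together and replicate 4 above the rest. The mean was 6.99 ± 0.741 FPKM with IFN-γ and 2.05 ± 0.655 FPKM untreated (SD, n = 4), a ratio of 3.42 and a log2 change of 1.78 (SE 0.21), or 1.71 without IFN-γ replicate 4. The values stand for about 192 to 343 fragments with IFN-γ and 48 to 92 untreated. RARRES1 (chromosome 3, 158696892 to 158732696, reverse strand) overlaps MFSD1, a transporter gene on the other strand, and 13.5% of its stretches of 31 bases also lie in MFSD1 transcripts on one strand or the other. MFSD1 was at 18.2 ± 1.11 FPKM with IFN-γ and 16.5 ± 0.893 FPKM untreated (SD, n = 4) and was not called. The library kit does not mark strand, and what MFSD1 fragments add to the RARRES1 values was not tested. LXN, the latexin gene related to RARRES1, was under the filter, at 0.912, 0.977, 0.256 and 0.565 FPKM with IFN-γ and 0.193, 0.218, 0 and 0.129 FPKM untreated.

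RARRES2, which encodes the chemoattractant chemerin, was barely detected, at 0.102, 0, 0 and 0.0914 FPKM with IFN-γ and 0.115, 0, 0.116 and 0 FPKM untreated, which is at most about 4 fragments in a library. At this depth no difference could be seen. Of the chemerin receptors, GPR1 was at 0.308, 0.213, 0.344 and 0.302 FPKM with IFN-γ and 0, 0.0405, 0.0584 and 0.0870 FPKM untreated, under the filter. CMKLR1, the main chemerin receptor, was also under it, at 0.1003, 0.0792, 0.0673 and 0.0545 FPKM with IFN-γ and 0.0568, 0.0193, 0.0342 and 0.0874 FPKM untreated, with groups that overlapped. CCRL2 was listed at 0 in all 8 libraries.

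CRABP2 was the most abundant of the 9 genes in untreated cells, and lower with IFN-γ. It was at 84.3, 85.5, 95.4 and 116 FPKM with IFN-γ and at 148, 146, 141 and 146 FPKM untreated. The groups did not overlap, the untreated libraries lay close together, and IFN-γ replicate 4 came nearest to them. The mean was 95.2 ± 14.4 FPKM with IFN-γ and 145 ± 2.86 FPKM untreated (SD, n = 4), a log2 change of -0.62 (SE 0.09), or -0.72 without IFN-γ replicate 4. Rescaling all values to TPM turned its sign (log2 change 0.18), where the median of all genes moved by 0.79, and relative to that median it was -0.60. CRABP1, the sister protein, was at 4.20, 5.81, 7.11 and 6.18 FPKM with IFN-γ and 4.96, 5.47, 4.80 and 4.79 FPKM untreated, and the groups overlapped.

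FABP5 is a carrier of fatty acids that also takes retinoic acid to the receptor PPARD. It was at 169, 171, 170 and 219 FPKM with IFN-γ and 149, 152, 149 and 153 FPKM untreated, and rose by a log2 change of 0.26 (SE 0.08, limma adjusted p = 0.0367, higher in 4 of 4 libraries). Without IFN-γ replicate 4 the change was 0.17 (adjusted p = 2.0e-04), while the call was lost without any 1 of the untreated libraries (adjusted p = 0.0732 to 0.0884), without the filter (0.0589), without the trend (0.0662) and with quantile normalization (0.178). The ratio of CRABP2 to FABP5 within a library, which scaling a whole library cannot move, was 0.499, 0.499, 0.561 and 0.528 with IFN-γ and 0.995, 0.958, 0.949 and 0.953 untreated. The ratio in replicate 4 lay among those of the other IFN-γ libraries, and the groups did not overlap. The ratio was chosen after the values were seen. PPARD was not called, at 7.24 ± 0.760 FPKM with IFN-γ and 6.98 ± 0.370 FPKM untreated (SD, n = 4).

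**Figure D3:**
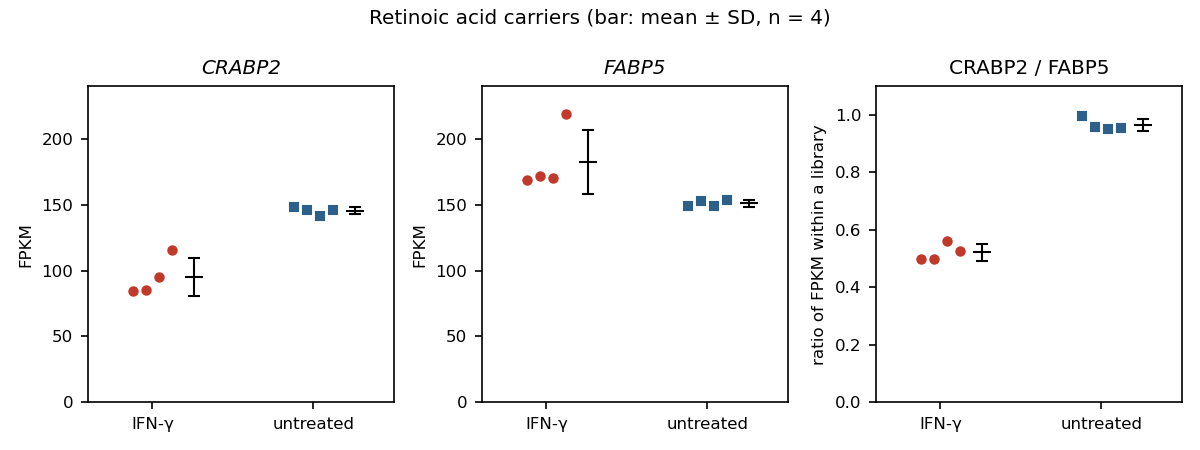
CRABP2 and FABP5 in FPKM, and their ratio within each library, for 4 IFN-γ libraries (red circles) and 4 untreated libraries (blue squares), with mean ± SD beside each group and all axes from 0. CRABP2 is lower and FABP5 higher with IFN-γ, and the ratio lies at 0.499 to 0.561 with IFN-γ and 0.949 to 0.995 untreated.

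RARA was at 11.2, 11.4, 12.1 and 10.4 FPKM with IFN-γ and 10.8, 10.5, 11.1 and 9.32 FPKM untreated. RARG was at 8.45, 7.85, 7.23 and 7.41 FPKM with IFN-γ and 6.62, 7.69, 8.02 and 6.96 FPKM untreated. RARB was at 1.17, 1.42, 1.37 and 1.33 FPKM with IFN-γ and 0.953, 1.34, 1.38 and 1.90 FPKM untreated. The groups overlapped for all 3. Their log2 changes were 0.12 (SE 0.07), 0.08 (SE 0.08) and -0.04 (SE 0.18). RARB, the receptor gene that retinoic acid itself raises, had the largest SE and rested on about 66 to 89 fragments with IFN-γ and 52 to 103 untreated.

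By mean FPKM, a level per length, the 6 receptor genes stood in the same order in both groups: RARA, RXRB, RXRA, RARG, RARB and RXRG. RARA and RXRB overlapped over libraries in both groups, as did RXRA and RARG. RXRB and RXRA overlapped with IFN-γ but not untreated. RARB lay below RARG, without overlap, at 1.32 ± 0.106 FPKM with IFN-γ and 1.39 ± 0.389 FPKM untreated (SD, n = 4). RXRG was listed at 0 in all 8 libraries. RXRB, the most abundant RXR, was at 9.53 ± 0.812 FPKM with IFN-γ and 9.96 ± 0.485 FPKM untreated (SD, n = 4) and was not called (limma adjusted p = 0.536). RXRA was not called either (log2 change 0.10, adjusted p = 0.351), but was without IFN-γ replicate 4 (0.16, adjusted p = 0.0489).

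DHRS3, which turns retinal back into retinol and is raised by retinoic acid in many cells, was nearly absent, at 0.0666, 0.0439, 0.0747 and 0.0903 FPKM with IFN-γ and at 0, 0, 0 and 0.0754 FPKM untreated. That is about 1 to 3 fragments in each IFN-γ library and at most 2 in an untreated one, so a difference could not be detected at this depth.

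Of the 9 genes, 7 passed the filter of a mean of 0.5 FPKM and 2, RARRES2 and DHRS3, did not. RARRES3 passed it through the IFN-γ libraries alone. Groups that did not overlap were seen in 3 of the 9 (RARRES3, RARRES1 and CRABP2), and in 28.2% of the 13598 genes that passed the filter. Since the genes were chosen with this comparison known, nothing is read from that count. Among all genes tested, limma called 22.3% at an adjusted p of 0.05, 13.3% higher and 9.05% lower, and the same threshold is used for the other retinoid genes below.

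The other genes of retinoid handling gave 74 genes in 8 lists, of which 38 were tested. Of these 38, 12 rose and 2 fell, where 13.3% of all genes tested rose and 9.05% fell. The median log2 change was 0.07, and -0.0047 over all genes tested. The lists too were chosen with earlier results of these data known, so nothing is read from their counts and medians, here or below. Without IFN-γ replicate 4, 17 rose and 2 fell, and leaving out untreated replicate 4 gave 8 and 2. Calls over all genes tested moved as well, from 1809 higher and 1230 lower with all libraries. They were 2157 and 1698 without IFN-γ replicate 4, and 1508 and 867 without untreated replicate 4.

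STRA6, the retinol uptake receptor and the most abundant uptake gene counted, was at 72.2 ± 4.40 FPKM with IFN-γ and 63.0 ± 2.72 FPKM untreated (SD, n = 4) and rose by a log2 change of 0.19 (SE 0.05, limma adjusted p = 0.0222). That call was lost without IFN-γ replicate 1 or 3 or untreated replicate 2, 3 or 4 (adjusted p = 0.0605 to 0.0718), with quantile normalization (0.404) and in TPM without short RNA genes (0.489). DGAT1, an acyltransferase that also stores retinol as esters, was at 2.98, 3.07, 4.58 and 3.03 FPKM with IFN-γ and 3.81, 3.94, 3.42 and 3.66 FPKM untreated. IFN-γ replicate 3 alone lay above the untreated values, and DGAT1 was not called (log2 change -0.14, limma adjusted p = 0.510) except without that library (-0.28, adjusted p = 0.0403). Of the 9 uptake and storage genes, 2 were tested, 1 rose and none fell, with a median log2 change of 0.03.

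Among 17 enzymes of retinal and retinoic acid synthesis, 7 were tested, of which 2 rose and 1 fell, with a median log2 change of -0.02. ALDH1A3, which makes retinoic acid from retinal, was at 3.71, 4.29, 3.09 and 3.28 FPKM with IFN-γ and 5.97, 6.19, 6.27 and 6.07 FPKM untreated. It fell by 0.76 on the log2 scale (SE 0.10, limma adjusted p = 2.6e-04, lower in 4 of 4 libraries), except when values were rescaled to TPM (log2 change 0.02, adjusted p = 0.944, which is below the shifted median). Its relatives ALDH1A1 and ALDH1A2 were listed at 0 or at most 0.0660 FPKM in every library. RDH14, a retinol dehydrogenase, was at 24.9, 24.8, 25.6 and 28.5 FPKM with IFN-γ and 16.5, 18.9, 16.2 and 16.5 FPKM untreated, a rise of 0.60 on the log2 scale (SE 0.06, adjusted p = 6.8e-05) that passed in all 19 alternatives run. RDH11, the most abundant of the list, was at 40.9 ± 3.83 FPKM with IFN-γ and 34.8 ± 0.888 FPKM untreated (SD, n = 4). Its rise (log2 change 0.23, SE 0.06, adjusted p = 0.0228) was lost without IFN-γ replicate 2 or untreated replicate 1, 2 or 4 (adjusted p = 0.0506 to 0.0671), with quantile normalization (0.0591) and in TPM without short RNA genes (0.118). The retinoic acid hydroxylases CYP26A1, CYP26B1 and CYP26C1 were at most 0.125 FPKM in any library and were not tested.

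**Figure D4:**
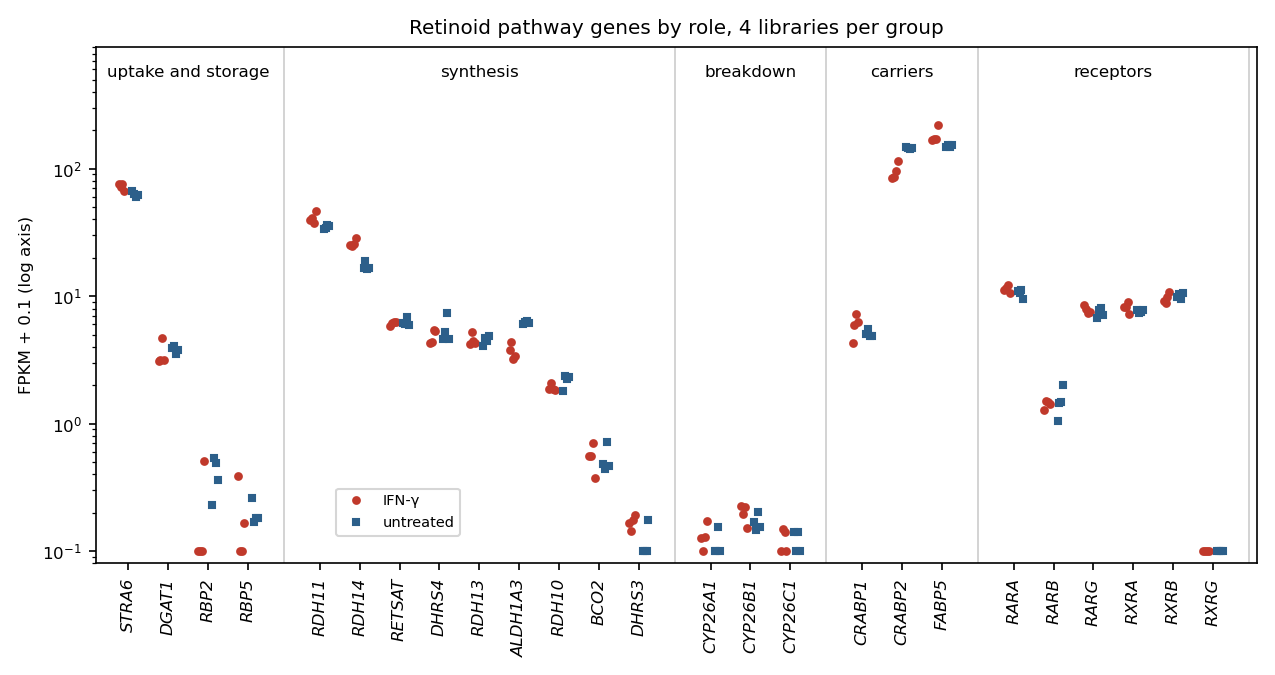
FPKM + 0.1 on a log axis for retinoid genes grouped by role, with the 4 IFN-γ libraries as red circles left of the 4 untreated libraries as blue squares for each gene. DHRS3 is drawn in the group labelled synthesis, though it turns retinal back into retinol. The uptake gene STRA6 and the carriers CRABP2 and FABP5 stand highest, and the CYP26 genes, DHRS3 and RXRG lie at or near 0 in both groups.

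All 14 receptor coregulators counted were tested, of which 2 rose and 1 fell, with a median log2 change of -0.0021. Without IFN-γ replicate 4, 5 rose and 1 fell, the coactivators NCOA1, NCOA2 and NCOA3 (log2 changes 0.19, 0.12 and 0.17, limma adjusted p = 0.0477, 0.0281 and 0.0204) being added. PRAME, a tumour antigen that represses retinoic acid receptors, was at 10.6 ± 1.24 FPKM with IFN-γ and 7.65 ± 0.301 FPKM untreated (SD, n = 4), a log2 change of 0.46 (SE 0.08, limma adjusted p = 0.0019). ZNF423, a zinc finger cofactor of the receptors linked to the retinoid response of neuroblastoma, was at 4.10, 4.08, 4.06 and 3.28 FPKM with IFN-γ and 5.12, 5.25, 5.87 and 5.56 FPKM untreated. It fell by 0.48 on the log2 scale (SE 0.09, adjusted p = 0.0028), except when values were rescaled to TPM (0.30, adjusted p = 0.365). Without IFN-γ replicate 4, the lowest of its group, the log2 change of ZNF423 was -0.41 (adjusted p = 0.0014). NRIP1, a corepressor, rose by a log2 change of 0.18 (SE 0.05, adjusted p = 0.0319), a call lost without IFN-γ replicate 1 or any 1 untreated library (adjusted p = 0.0567 to 0.0904), with the replicate number as a block (0.0632), with quantile normalization (0.102) and in TPM without short RNA genes (0.474). The 2 most abundant, TBL1XR1 and MED1, were not called, at 49.6 ± 1.07 and 25.4 ± 1.95 FPKM with IFN-γ and at 49.9 ± 1.05 and 26.4 ± 0.710 FPKM untreated (SD, n = 4). The log2 change of MED1 was -0.06, and -0.0048 without IFN-γ replicate 4.

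Of 18 genes known to respond to retinoic acid, 10 were tested, of which 5 rose and none fell, with a median log2 change of 0.26. Over all genes tested 13.3% rose. TGM2, tissue transglutaminase, was at 6.32, 6.38, 7.45 and 5.93 FPKM with IFN-γ and 0.644, 0.510, 0.627 and 0.630 FPKM untreated, a log2 change of 3.24 (SE 0.11, limma adjusted p = 6.7e-09). CD38, an ectoenzyme that consumes NAD, was at 1.42, 0.939, 0.622 and 0.679 FPKM with IFN-γ and 0.0896, 0.228, 0.406 and 0.224 FPKM untreated (log2 change 1.61, SE 0.34). CD38 passed the filter only through its IFN-γ values, with group means of 0.916 FPKM with IFN-γ and 0.237 FPKM untreated. It fell below the filter without IFN-γ replicate 1 and at a filter of 1 FPKM. Its rise was favoured by the filter, so no p is given for it, though it is among the 5 counted. RET, the receptor kinase of the GDNF family, was at 154, 151, 155 and 133 FPKM with IFN-γ and 93.4, 90.3, 90.9 and 91.1 FPKM untreated (log2 change 0.70, SE 0.05, adjusted p = 4.0e-06). RAI14 was at 5.45 ± 0.360 FPKM with IFN-γ and 3.96 ± 0.310 FPKM untreated (SD, n = 4; log2 change 0.45, SE 0.08, adjusted p = 0.0023). HOXD4, named after its values were seen, rose as well (log2 change 0.42, adjusted p = 2.9e-04). MEIS2, among the most abundant of the list, was not called, at 81.1 ± 1.44 FPKM with IFN-γ and 75.2 ± 2.71 FPKM untreated (SD, n = 4), with adjusted p = 0.0620 and 0.0277 without IFN-γ replicate 4. STRA8, HOXB1, HOXA5 and CEBPE were listed at 0 in all 8 libraries.

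**Figure D5:**
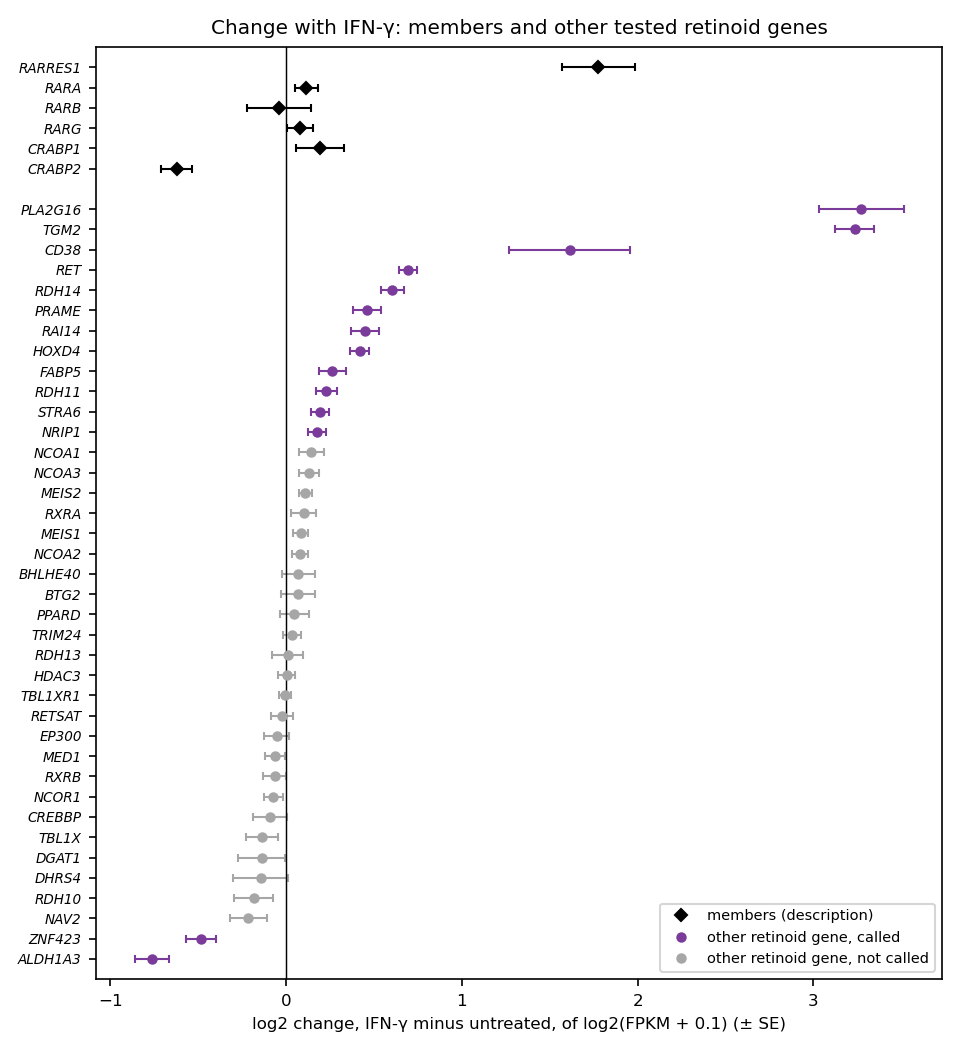
Log2 change, IFN-γ minus untreated, of log2(FPKM + 0.1) with its SE from the fit over all genes: 6 of the 9 genes as black diamonds and the 38 other tested retinoid genes as circles, purple where called at a limma adjusted p of 0.05 and grey where not. RARRES3, RARRES2 and DHRS3 are left out, the first because its untreated values are all 0 and the others as below the filter, and PLA2G16 and TGM2 lie farthest to the right.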

How the data were processed

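Per the labels, RNA of 8 M17 libraries was isolated with TRIzol, depleted of ribosomal RNA and made into NEBNext Ultra libraries, a kit without strand marking. Per the submitters' processing notes, TopHat2, Cuffdiff and hg38 were used, and the deposited FPKM values, 1 column per library, are the authors' own. Of versions, options, the annotation and any scaling between libraries, nothing is given in the sources used here. The growth protocol in the labels also names SH-SY5Y, but all 8 samples are labelled M17.

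On the scale log2(FPKM + 0.1), the 13598 genes whose mean reached 0.5 FPKM were fitted in limma 3.58.1 under R 4.3.3, its variance trend on. Tests were two-sided, p-values were adjusted by Benjamini and Hochberg's method over all of these genes, and calls needed an adjusted p under 0.05. Fold changes on this scale understate the change of low genes. The fit was also run on simulated data with independent normal errors. Such data cannot show how it holds with a library that differs throughout, such as IFN-γ replicate 4. The members, lists and alternatives were chosen with earlier results of these data known. A few genes of the lists are not reported here and were left out of the list counts, but not of the fit. Genes named were the 9 members, up to 4 called genes with the largest change and the 2 most abundant of each list, the 2 listed genes on each side of RARRES3 and the 5 nearest profiles, beside others that the text names for their place in a list or as a check. Positions came from GENCODE release 29, and fragments were estimated from the longest transcript and the step of low values, approximately. The step was read with 200 bases taken off each transcript, but fragments with the full length. Fragment numbers are therefore too high, most of all for short transcripts. Libraries of a group differed by more than counting noise, so none was treated as deposited more than once, which does not show that they came from separate cultures. Alternatives were quantile normalization, median-of-ratios scaling, TPM with and without short RNA genes, a filter of 1 FPKM or none, a pseudocount of 1 or 0.01, limma without trend or robust, the replicate number as a block, and each library left out.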

Additional observations from a re-analysis of the deposited data

Results flagged for a closer look

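In 17 of 112 groups of 4 libraries, over 60 genes named in the text, 1 library lay far from the other 3 by Dixon's test, where chance gives about 1 in 20. 8 of the 17 were IFN-γ replicate 4, the library with the lowest correlations to its group over all genes tested. It was the highest of its group for RARRES1 at 8.09 FPKM, FABP5 at 219 FPKM, TAP1 at 381 FPKM, DCN at 177 FPKM and LUM at 41.9 FPKM, and the lowest for ZNF423 at 3.28 FPKM, MED1 at 22.5 FPKM and APOL6 at 69.4 FPKM. IFN-γ replicate 3 was high for DGAT1 at 4.58 FPKM. Untreated replicate 2 was high for RDH14 at 18.9 FPKM and low for TGM2 at 0.510 FPKM, and the only untreated library above 0 for HLA-DRA at 0.0456 FPKM and APOL1 at 0.0183 FPKM. Untreated replicate 3 was high for GBP1 at 0.0397 FPKM and untreated replicate 4 for DCN at 146 FPKM. DHRS3 was above 0 in untreated replicate 4 alone among untreated libraries, at 0.0754 FPKM, and CYP26A1 in untreated replicate 3 alone, at 0.0559 FPKM. A group with 1 value above 0 and the rest at 0 is flagged by Dixon's test whatever that value is. That holds for DHRS3, CYP26A1, HLA-DRA and APOL1, so the share of about 1 in 20 does not apply to them.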

How the results depend on the processing

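RARRES1 kept a higher and CRABP2 a lower mean in IFN-γ libraries in all 19 alternatives, except CRABP2 in TPM (log2 change 0.18). Over single libraries left out, the log2 change of RARRES1 was 1.55 to 1.93, that of CRABP2 -0.72 to -0.57, and the RARRES3 mean 259 to 287 FPKM. In TPM the log2 change of RARRES1 was 2.56 and the RARRES3 mean 433 TPM, or 540.5 TPM without short RNA genes. Quantile normalization gave -0.79 for CRABP2. The median log2 change over all genes became 0.79 in TPM. SNORD3A was listed at 0 with IFN-γ and held 5.97 to 57.9% of each untreated FPKM sum. The TPM scale called 9462 genes, 9442 higher and 20 lower, and 31 and 0 of the retinoid lists, against 1809 and 1230, and 12 and 2, in the deposited scale. There the log2 changes of RXRB, TBL1XR1 and MED1 were 0.73, 0.80 and 0.74, all called, and those of ALDH1A3 and ZNF423 0.024 and 0.30. TPM without short RNA genes called 986 genes higher and 1084 lower, and 8 and 2 of the retinoid lists. Quantile normalization called 1470 higher and 2574 lower, and 8 and 2 of the lists. RAI14 missed the threshold in TPM without short RNA genes (adjusted p = 0.0594).

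Over single libraries left out, 2336 to 3855 genes were called (1484 to 2157 higher, 852 to 1698 lower), and 10 to 19 of the retinoid lists (8 to 17 higher, 2 to 3 lower). For same-numbered libraries of the groups the correlation of deviations was -0.03 to 0.08. Other pairs were not set beside it, so whether same-numbered libraries belong together cannot be told from it. With the replicate number as a block, 2656 genes were called, 1639 higher and 1017 lower, and 13 of the lists, NRIP1 (adjusted p = 0.0632) being lost. Depth limits RARRES2, DHRS3 and the CYP26 genes, at a few fragments per library.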
